A study of Mus musculus with 35 samples.

Results

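The 6 samples described here are pools of side population (SP) cells, the mouse marrow cells that pump out the dye Hoechst, in which blood stem cells are concentrated. They were chosen as the ten-cell SP samples and grouped by their own Mki67 level: 3 pools with a high level (LSP A, USP N and USP O) were set against 3 with a low level (LSP B, LSP M and USP Z), 6 of 9 ten-cell pools and 12 of the 35 arrays of the study. The labels give no such groups. Mki67 encodes Ki-67, a nuclear protein found in cycling cells and missing from resting ones, so the comparison asks which other transcripts differ between pools with a high and a low level of this one.

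All 6 pools came from the marrow of untreated male C57Bl/6 CD45.1 mice aged 7 to 9 weeks, from SP cells sorted for Sca-1 and against Gr-1. LSP cells came from the lower end of the SP tail and USP cells from its upper end, and each pool joined 4 amplifications of 10 cells and was hybridised to 2 Affymetrix MG-U74Av2 arrays. The Mki67-high group holds 1 LSP and 2 USP pools and the Mki67-low group 2 LSP and 1 USP pools, so population and Mki67 level are not the same division. The study also has 3 pools of CD8 T cells, 12 SP cells on their own and 5 single-cell-equivalents (SCE), each an aliquot with the RNA of 1 cell from a joint lysate of 40 SP cells. The methods took the marrow for a single- or ten-cell experiment from 1 mouse, which of these pools shared a mouse or a sorting day is not given in the sources used here, and in pools of 40 cells fewer cells with a transcript and less transcript per cell cannot be told apart.

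Most blood stem cells rest outside the cell cycle at any moment and divide rarely. A cell that enters the cycle first makes D-type cyclins, then loads the MCM helicase onto replication origins with the help of Cdt1, copies its DNA with polymerases, clamp loaders and ligases, and at last separates its chromosomes with the aid of topoisomerases, cohesin and the survivin complex. Many of these genes are transcribed under E2F factors early in this sequence, or under factors that read the CHR element late in it.

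The promoters of the 3 genes that mark the comparison are shown so that the sequences of 3 cell cycle genes with like values in the pools can be set side by side. Each RefSeq window of build GRCm38.p6 runs 5′ to 3′ from 250 bases before to 50 bases after a transcription start. Capitals mark an E2F-type motif (TTTCCCGC, TTTGGCGC, TTTCGCGC or TTTGCCGC), the CHR motif TTTGAA or the CCAAT box, each on either strand, and overlapping matches run together.
Mki67 (chr7:135716330-135716629, minus strand): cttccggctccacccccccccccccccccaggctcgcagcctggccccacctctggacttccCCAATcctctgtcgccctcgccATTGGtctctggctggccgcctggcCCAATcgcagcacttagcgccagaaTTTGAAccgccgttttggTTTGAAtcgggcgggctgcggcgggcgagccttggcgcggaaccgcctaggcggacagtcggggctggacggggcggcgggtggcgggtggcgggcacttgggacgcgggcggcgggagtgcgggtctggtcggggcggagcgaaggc
Mcm5 (chr8:75109259-75109558, plus strand): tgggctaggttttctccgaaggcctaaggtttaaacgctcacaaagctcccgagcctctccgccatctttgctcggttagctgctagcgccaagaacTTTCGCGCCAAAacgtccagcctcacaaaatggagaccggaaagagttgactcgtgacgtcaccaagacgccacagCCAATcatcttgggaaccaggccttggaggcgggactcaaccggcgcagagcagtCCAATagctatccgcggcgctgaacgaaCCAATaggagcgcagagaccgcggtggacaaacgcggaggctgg
Lig1 (chr7:13278576-13278875, plus strand): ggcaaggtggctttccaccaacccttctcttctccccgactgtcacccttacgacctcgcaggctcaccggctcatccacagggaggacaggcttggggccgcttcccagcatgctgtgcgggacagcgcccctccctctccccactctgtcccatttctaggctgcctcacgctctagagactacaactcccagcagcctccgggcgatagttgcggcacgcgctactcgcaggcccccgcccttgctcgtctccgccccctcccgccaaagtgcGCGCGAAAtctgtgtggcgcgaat

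The Mki67 window held the CHR motif 2 times and a CCAAT box 3 times. The Mcm5 window held 2 overlapping E2F-type motifs, one on each strand, and 3 CCAAT boxes. Of the 3 Lig1 windows, the one printed held an E2F-type motif just after the start, and the other two held none of the motifs. Over all 32851 windows, 2.26% held an E2F-type motif, 17.9% the CHR motif and 37.4% a CCAAT box. A match is a description of letters and not a binding site.

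The groups were defined from the Mki67 level, so this level is given as a description with no test. The brighter of the 2 Mki67 probe sets was at 11.53, 11.48 and 11.49 on the log2 scale in the Mki67-high pools LSP A, USP N and USP O, against 7, 7.77 and 7 in the Mki67-low pools LSP B, LSP M and USP Z. Within each group, values follow this order of pools throughout. Intensities under 128, a log2 level of 7, were set to 7, so a pool at 7 had no measured level, values at this floor have no order among themselves, and a difference from pools at the floor is a lower bound. The lowest pool inside the rule's limit of 9 was USP N at 11.48 and the highest outside it was LSP M at 7.77, so no pool lay near the limit. The other Mki67 probe set was at 8.20, 8.08 and 9.25 in the Mki67-high pools and at the floor in all 3 Mki67-low pools. All 3 CD8 pools were at the floor for both probe sets.

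The pools carried stem cell transcripts in both groups. Of 6 stem cell markers, 4 had a probe set of their own (Tal1, Lmo2, Procr and Meis1), and all 4 were above the floor in every SP pool, with summed levels of 38.0 to 39.0 in the Mki67-high and 39.9 to 41.8 in the Mki67-low pools, against 28.0, all at the floor, in the CD8 pools. The granulocyte markers Mpo and Elane were at the floor in all pools, while S100a8 was between 9.56 and 11.78 in all 6. S100a9, of the same cells, was at 7, 9.71 and 9.52 in the Mki67-high pools and 7, 8.18 and 9.23 in the Mki67-low pools. Hba-a1, a globin of red cells, was at 7, 11.27 and 10.94, against 7.97, 8.75 and 10.74, so both were higher in each of the 3 USP pools than in any LSP pool. Cd79b, of the B cell receptor, was at 7, 9.57 and 9.85 in the Mki67-high pools and 9.11, 7 and 7.39 in the Mki67-low pools. Their part in the differences between the groups was not tested. The T cell marker Cd3g was at the floor in all SP pools, and Cd3e was above it in LSP M alone, at 8.59, while Cd3d was at the floor in the CD8 pools too and marks nothing here. Duplicate arrays correlated across probe sets at 0.953 to 0.992, lowest in LSP B. The number of probe sets at a level of 9 or more was 2294, 2215 and 2197 in the Mki67-high pools and 2052, 1909 and 1734 in the Mki67-low pools, with no overlap.

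Among the cell cycle transcripts other than Mki67, Lig1 alone passed the test between the groups. Lig1 was known to follow Mki67 when the comparison was chosen, so its p is not independent evidence. Of 6318 probe sets tested with limma, with Mki67 left out, 9 were higher in Mki67-high pools at an adjusted p under 0.05 (0.142% of those tested) and 1 was lower (0.0158%). At an unadjusted p under 0.05 these numbers were 254 (4.02%) and 238 (3.77%). Adjusted p-values are those of limma, by Benjamini-Hochberg, with every tested probe set included. The p-values measure only the spread between these pools, which may be technical. The 9 calls were lost, with 0 probe sets called higher, in 10 of 16 other settings of the fit, among them LSP or USP as a covariate, quantile normalization, and the fit without LSP A, without LSP B, without LSP M or without USP Z, and there were 18 without USP N and 26 without USP O. Of the 12 arrays, 9 hold negative values and 3, all of Mki67-low pools (1 of LSP B, both of USP Z), hold positive values alone. On the 9 arrays alone 0 were called either way, with 223 higher and 239 lower at an unadjusted p under 0.05 by limma.

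For counts in gene lists, each gene was taken with its brightest probe set, and a gene was counted where all 3 Mki67-high pools lay above, or all below, all 3 Mki67-low pools. Of 4877 genes tested, 261 lay above (5.35%) and 239 below (4.9%), and the median log2 difference (Mki67-high minus Mki67-low) was 0.03. In 50 of the 261 all 3 Mki67-low pools were at the floor, so these 50 entered the test through the Mki67-high pools alone. The difference went with the level of a gene. The 1728 genes at a mean level of 8 to 10 had a median difference of 0.29, with 9.43% above and 3.01% below, while the 753 genes at 10 or more had a median of -0.23, with 4.25% above and 20.7% below. The cell cycle lists are therefore read beside genes of like level. After quantile normalization these medians were 0.07 and -0.04.

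**Figure D1:**
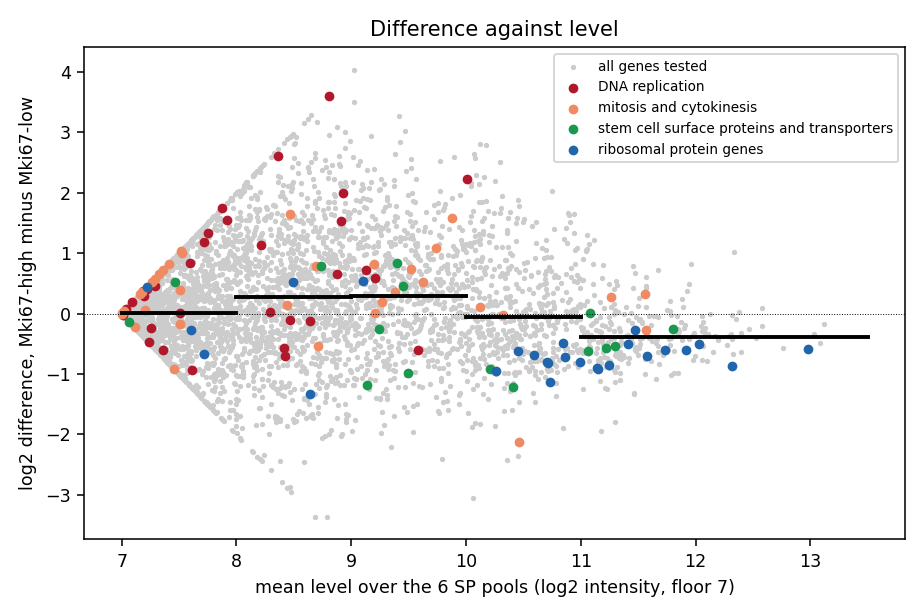
Log2 difference (Mki67-high minus Mki67-low pools) of each of 4877 genes against its mean level over the 6 SP pools. Black bars are medians of all genes in steps of level, 0.28 and 0.30 between 8 and 10 and -0.39 at 11 or more; DNA replication genes (red) lie mostly above 0 and ribosomal protein genes (blue) mostly below.

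The list of DNA replication holds Mcm5, whose difference is a lower bound and has no rank beside other lower bounds. Of 48 genes listed, 43 had a probe set of their own and 32 were above the floor on at least 1 SP array. Of these 32, 7 lay above in all Mki67-high pools and 0 below, against 5.35% and 4.9% of all genes, and the median difference was 0.39. The 7 include Mcm5 and Lig1, which were known to follow Mki67 when the comparison was chosen, so this count is partly built in. Among the 14 at a mean level of 8 to 10 the median was 0.62 and 4 lay above (28.6%), against 9.43% of all genes at that level, whose median was 0.29. Mcm5 and Lig1 are among these 4 as well. After quantile normalization the median of these 14 was 0.14, against 0.07 for all genes at that level, so little of that gap was left. The median of the 32 fell to 0.18 after quantile normalization and to 0.23 without LSP M. Lig1 was the only one of the 32 called at an adjusted p under 0.05.

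Mcm5, a subunit of the helicase that opens DNA at origins, was at 11.10, 11.31 and 9.39 in the Mki67-high pools, against the floor of 7 in all 3 Mki67-low pools. It was at least 12.2-fold higher in Mki67-high pools, with USP O the lowest of them, and its adjusted p was 0.193 by limma. Mcm5 entered the test through the Mki67-high pools alone, and the floor leaves the Mki67-low pools with no spread, so this p is not that of a measured difference. CD8 pools were at the floor but for one array. A further Mcm5 probe set was at the floor on all arrays of the pools, so the difference rests on 1 of 2 probe sets.

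Lig1, the ligase that joins the fragments of the lagging strand, was at 9.92, 9.61 and 9.48 in the Mki67-high pools, against 7, 7.16 and 7 in the Mki67-low pools. The groups lay far apart and the pools of each lay close together. LSP B and USP Z were at the floor and LSP M little above it, so the floor leaves the Mki67-low group hardly any spread. The difference was 2.62 ± 0.17 (SE, limma adjusted p = 0.0402), and over all other settings it ran between 1.67 and 3.27, with an adjusted p between 0.000614 and 0.232. Its other probe set was at the floor on every array of the pools.

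**Figure D2:**
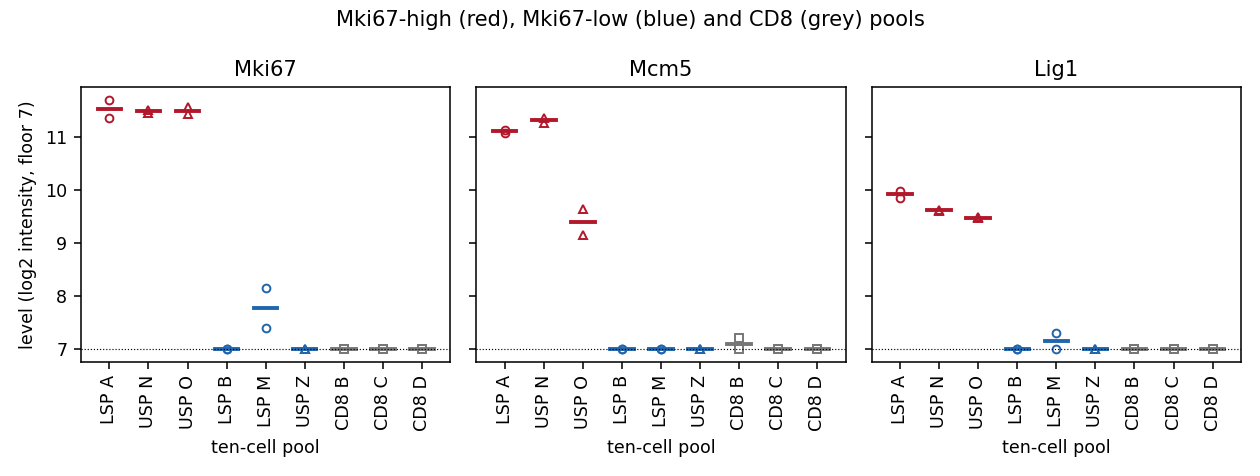
Log2 level (floor at 7, dotted line) of Mki67, Mcm5 and Lig1 on each array (points) of each ten-cell pool, with the mean of the pool's 2 arrays as a bar. Mki67, by which the pools were grouped, lies near 11.5 in the red pools. Pool means of Mcm5 and Lig1 lie between 9.39 and 11.31 there. The blue and grey pools stay at the floor or close to it, but for Mki67 in LSP M, with a mean of 7.77.

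Of the other 5 replication genes that lay above, Rfc2, a subunit of the clamp loader, was at 10.13, 12.05 and 11.19 in Mki67-high pools and 9.58, 7 and 10.09 in Mki67-low pools, so LSP A and USP Z nearly met. Pold2, a subunit of polymerase delta, was at 10.14, 8.46 and 11.18, against 8.23, 8.29 and 7.27 in Mki67-low pools. Neither passed the test, with adjusted p of 0.76 and 0.642 by limma, and both were also present in CD8 pools, at means of 11.40 and 9.89. Cdt1, which loads the helicase, was at 9.14, 9.57 and 10.31 in Mki67-high pools, against 8.77, 7 and 8.67 in Mki67-low pools. Rpa2, which covers single-stranded DNA, was at 7.58, 9.26 and 9.23, against 7, 7.41 and 7 in Mki67-low pools. Gins2, a part of the active helicase, was at 7.62, 8.94 and 8.39, against 7.38, 7 and 7 in Mki67-low pools. These last 3 had unadjusted p of 0.0537, 0.0314 and 0.0255 by limma and adjusted p of 0.654, 0.545 and 0.514. In each, with the probe set given, the LSP pool was the lowest of the Mki67-high pools. A further Cdt1 probe set also lay above, but with USP N the lowest Mki67-high pool. It was at 9.06, 8.62 and 9.49, against 8.46, 7.58 and 7.15 in Mki67-low pools (limma adjusted p = 0.514).

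The remaining 25 replication genes overlapped between the groups, among them the other measured subunits of the MCM helicase. Mcm2 was at 9.84, 8.90 and 9.76 in Mki67-high pools and 10.78, 7.52 and 8.43 in Mki67-low pools. Mcm3 was at 7.16, 9.05 and 8.72, against 7.99, 7 and 9.84 in Mki67-low pools. Mcm7 was at 9.98, 7.22 and 7, against 7, 8.10 and 11.23. Mcm4 was above the floor in USP N alone of the SP pools, at 7.57. So these subunits did not follow the division that Mcm5 showed, and USP Z, with no measured Mki67, had the highest level of both Mcm3 and Mcm7. USP Z was also highest in Cdc6, a loading factor, at 11.55, against at most 9.41 in Mki67-high pools. Pcna, the sliding clamp and a common marker of proliferation, was at 8.29, 9.56 and 9.99 in Mki67-high pools and 10.07, 9.29 and 10.29 in Mki67-low pools, a log2 difference of -0.61 ± 0.54 (SE). Cdc7, the kinase that fires origins, was at 7, 9.81 and 9.52, against 7, 7 and 8.94 in Mki67-low pools, high in the 3 USP pools and at the floor in the 3 LSP pools.

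**Figure D3:**
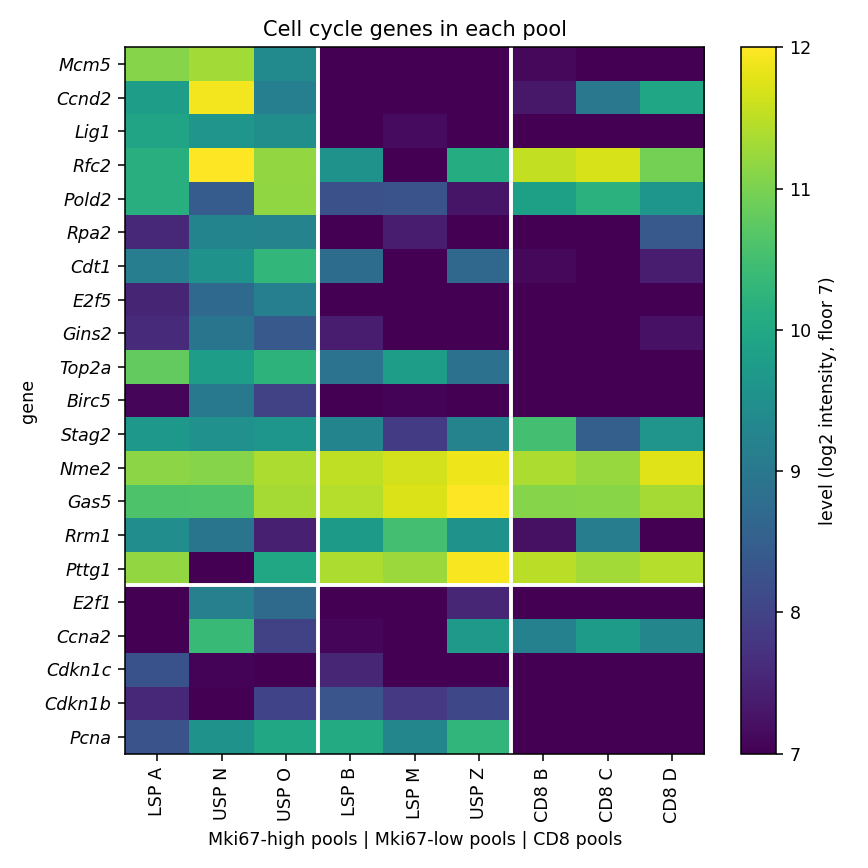
Log2 level (colour, floor at 7) of 16 cell cycle genes whose Mki67-high and Mki67-low pools do not overlap (upper block) and of 5 often used markers that overlap (lower block), in the 9 ten-cell pools. The 16 come from lists with 32, 16, 35, 16 and 19 genes tested and were chosen because they separate the groups. Of all genes tested, 5.35% lay above and 4.9% below. Mcm5, Ccnd2, Lig1 and E2f5 are at or near 7 in all 3 Mki67-low pools, while Pcna and Ccna2 show no such division.

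Among genes that supply nucleotides, 10 had a higher and 6 a lower mean in Mki67-high pools. Of 16 tested, 0 lay above and 2 below, against 5.35% and 4.9% of all genes. Rrm1, the large subunit of ribonucleotide reductase, was at 9.46, 8.95 and 7.43 in Mki67-high pools and 9.73, 10.51 and 9.56 in Mki67-low pools, and Nme2, a nucleoside diphosphate kinase, at 11.12, 11.10 and 11.39, against 11.52, 11.66 and 11.88. Their adjusted p were 0.76 and 0.555 by limma, and Nme2 lies at a mean level of 11.44, where 29.5% of all genes lay below. The list's median difference was 0.17, but -0.01 after quantile normalization, 0.48 without USP N, 0.07 without LSP A, 0.04 without LSP M, 0.03 without USP Z and 0.28 without USP O, so it has no settled value. The 6 of its genes at a mean level of 8 to 10 had a median of 1.08, against 0.29 for all genes at that level. After quantile normalization these medians were 0.85 and 0.07.

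Of 35 genes of mitosis and cytokinesis tested, 3 lay above and 1 below, against 5.35% and 4.9% of all genes, with a median of 0.33 and 0 called at an adjusted p under 0.05 (1 higher and 0 lower at an unadjusted p under 0.05 by limma). Among the 12 at a mean level of 8 to 10 the median was 0.64 and 2 lay above (16.7%), against 0.29 and 9.43% for all genes at that level. After quantile normalization these medians were 0.33 and 0.07. The median of the 35 was 0.03 without USP O, so it rests on that pool, and 0.19 without USP N. Cdc20, Ect2, Kif20a and Aurka, which act from the spindle checkpoint to cytokinesis, were at 10.12, 9.47, 8.96 and 8.63 in USP O, and 7.09 was the most any of them reached in another SP pool, while Cdc20 reached 7.42 in the CD8 pools. USP O was also the pool with granule genes of neutrophils, Lcn2 at 12.74, Camp at 10.91, Ngp at 10.62 and Ltf at 9.81, of which Lcn2 (9.25) and Ngp (7.47) were above the floor in USP N as well and none in the other 4 SP pools. Of the 12 granulocyte and monocyte markers tested, 0 lay above or below, and their part in the mitosis values was not tested.

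Top2a, which untangles DNA, was at 10.79, 9.80 and 10.24 in Mki67-high pools, against 8.90, 9.79 and 8.89 in Mki67-low pools, so it was present in all 6 pools, and USP N and LSP M were nearly level. Its log2 difference was 1.08 ± 0.39 (SE, limma adjusted p = 0.591), and the CD8 pools were at the floor. Birc5, the survivin of the chromosomal passenger complex, was at 7.06, 9.03 and 7.99, against 7, 7.06 and 7 in Mki67-low pools, so LSP A barely exceeded LSP M. Stag2, a cohesin subunit, was at 9.67, 9.53 and 9.64, against 9.25, 7.89 and 9.23. Pttg1, the securin that holds back sister chromatid separation, lay below, at 11.20, 7 and 10.00 in Mki67-high pools and 11.38, 11.26 and 11.95 in Mki67-low pools, with USP N alone at the floor. A further Pttg1 probe set was above the floor in LSP B alone of the SP pools, at 10.31. None of the 4 passed the test. Cdk1 was at the floor in all 9 ten-cell pools.

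Among cyclins and the factors that start the cycle, Ccnd2 stood out. Ccnd2 encodes cyclin D2, a partner of the kinases that act at cycle entry. It was at 9.80, 11.92 and 9.15 in Mki67-high pools, against the floor of 7 in all 3 Mki67-low pools, at least 9.8-fold higher (limma adjusted p = 0.35). The transcript was also in CD8 pools, at a mean of 8.75. E2f5, a member of the E2F family that acts mainly as a repressor, was at 7.52, 8.72 and 9.16, against 7 in all 3 Mki67-low pools, at least 2.76-fold higher (limma adjusted p = 0.506). Both entered the test through the Mki67-high pools alone. Of the 16 genes tested in this list 2 lay above and 0 below, against 5.35% and 4.9% of all genes. The median was 0.57, but 0.12 without USP N, 0.11 without USP O, 0.17 without LSP M, 0.30 with LSP or USP as a covariate and 0.36 after quantile normalization. Among its 5 genes at a mean level of 8 to 10 the median was 0.62 and 1, Ccnd2, lay above (20%). For all genes at that level these were 0.29 and 9.43%. After quantile normalization the 2 medians were 0.37 and 0.07.

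The other often used markers of this list went partly with population. E2f1, the activator of replication genes, was at 7, 9.18 and 8.72 in Mki67-high pools and 7, 7 and 7.55 in Mki67-low pools, above the floor in the 3 USP pools and at it in the 3 LSP pools. Ccna2, which encodes cyclin A2, was at 7, 10.38 and 7.97, against 7.09, 7 and 9.69 in Mki67-low pools. Its log2 difference of 0.52 turned to -0.28 with LSP or USP as a covariate. LSP A, with high Mki67, Mcm5 and Lig1, thus had no measured level of E2f1, Ccna2, Cdc7 or Myc. Myc was at the floor in all pools but USP O, at 7.51.

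Of 19 genes of cycle exit and rest tested, 0 lay above and 1 below, against 5.35% and 4.9% of all genes. The median was -0.30, with -0.09 without LSP B, -0.47 without LSP M, -0.45 after quantile normalization, -0.63 with a floor of 6 and -0.10 with a floor of 8. The 8 of them at a mean level of 8 to 10 had a median of -0.20, against 0.29 for all genes at that level. Gas5, a noncoding RNA that builds up in resting cells and carries small nucleolar RNAs, was at 10.61, 10.63 and 11.33 in Mki67-high pools and 11.44, 11.74 and 12.31 in Mki67-low pools, a log2 difference of -0.98 ± 0.33 (SE, limma adjusted p = 0.545). It lies at a mean level of 11.34, where 29.5% of all genes lay below. A further Gas5 probe set overlapped between the groups, with a difference of -0.14. Cdkn1b, which encodes the inhibitor p27 [Kip1], was at 7.57, 7 and 8.01, against 8.33, 7.84 and 8.09 in Mki67-low pools. Cdkn1c, which encodes p57 [Kip2], was at 8.26, 7.04 and 7, against 7.53, 7 and 7. Cdkn1a, which encodes the inhibitor p21 [Cip1], was at 7.59, 7.12 and 7.42, against 9.65, 7.94 and 7 in Mki67-low pools. All 3 inhibitors overlapped between the groups.

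**Figure D4:**
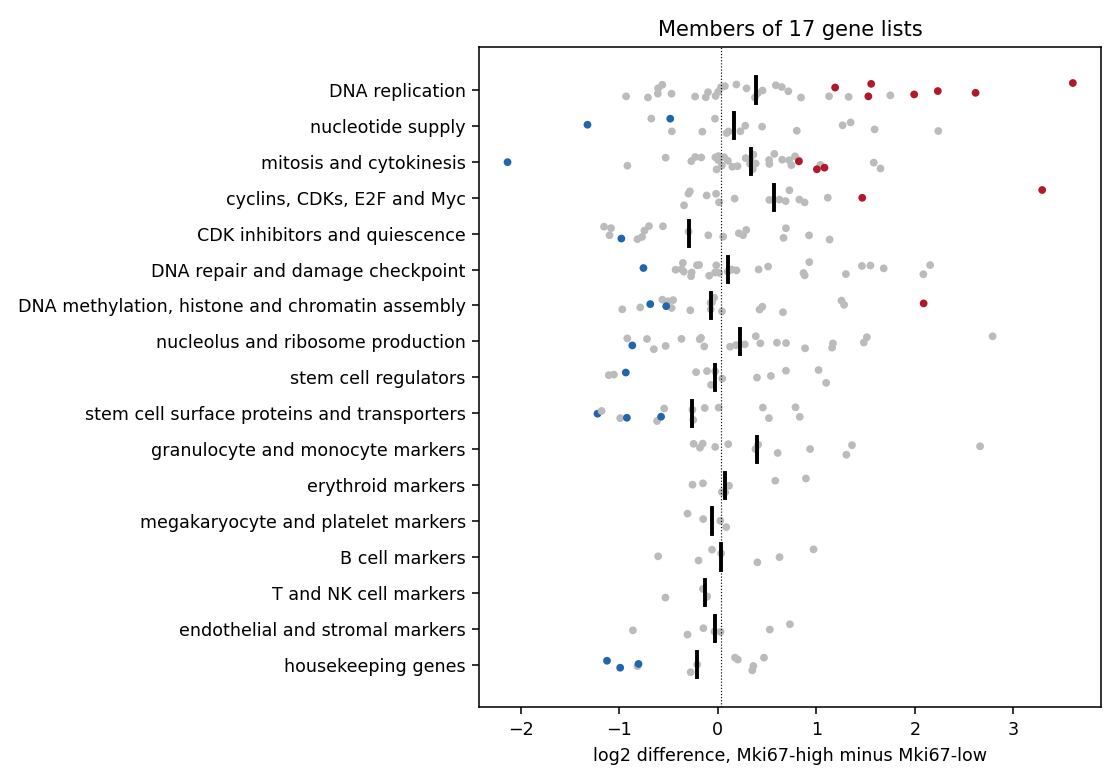
Log2 difference (Mki67-high minus Mki67-low) of each tested member of 17 gene lists. Black bars are list medians and the dotted line the median of all 4877 genes, 0.03; red members have all Mki67-high pools above, blue ones all below, and grey ones overlap. DNA replication holds 7 red and 0 blue members, and the lists of other cell types hold none. Mcm5 and Lig1, among the 7, were known beforehand to follow Mki67.

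In the lists of chromatin, repair and the nucleolus, few members separated the groups, and of all genes 5.35% lay above and 4.9% below. Of 20 genes of methylation and chromatin assembly 1 lay above and 2 below, of 27 repair genes 0 and 1, and of 22 nucleolar genes 0 and 1. Uhrf1, which brings the maintenance DNA methyltransferase to newly copied DNA, was at 10.03, 7.39 and 10.07 in Mki67-high pools, against 7, 7 and 7.22 in Mki67-low pools (log2 difference 2.09 ± 0.81, SE; limma adjusted p = 0.637). The histone chaperone Anp32b and the histone-binding protein Rbbp7 lay below, with differences of -0.69 and -0.52. Ddb1, an adaptor of a ubiquitin ligase in repair, differed by -0.75, and Npm1, the main nucleolar phosphoprotein, by -0.87. All 4 of these genes lie at mean levels of 10 or more, where 20.7% of all genes lay below. A further Ddb1 probe set overlapped between the groups, with a difference of -0.15. Npm1 was at 10.38, 10.46 and 10.53 in Mki67-high pools and 11.34, 11.26 and 11.37 in Mki67-low pools (limma adjusted p = 0.184).

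Few stem cell transcripts separated the groups, and those that did lay below. Of 13 stem cell regulators tested 1 lay below and 0 above, and of 15 surface proteins and transporters 3 lay below and 0 above. Of all genes 4.9% lay below and 5.35% above. The median differences of the 2 lists were -0.03 and -0.26. Lmo2, a bridging factor of the stem cell transcription complex, was at 10.24, 10.17 and 10.41 in Mki67-high pools and 10.74, 11.34 and 11.54 in Mki67-low pools, a log2 difference of -0.93 ± 0.25 (SE, limma adjusted p = 0.42). Its other probe set went the other way, by 0.96, with overlapping groups. Abcg2, the pump that gives SP cells their dye efflux, was at 9.70, 9.59 and 10.10, against 10.13, 11.24 and 11.67 in Mki67-low pools (difference -1.22 ± 0.45, SE; limma adjusted p = 0.6). Ctla2b and Adgrg1, an adhesion receptor, differed by -0.92 and -0.58. All 4 genes lie at mean levels of 10 or more, where 20.7% of all genes lay below. At that level 1 of 4 regulators, 3 of 7 surface proteins and transporters and 3 of 8 housekeeping genes lay below. These 3 of the 11 housekeeping genes tested, Rps18, Eef1a1 and Rplp0, lay below by 1.12, 0.99 and 0.80 on the log2 scale.

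The probe sets that passed the test were mostly not cell cycle genes. Beside Lig1, 7 genes and 1 probe set with no single gene were called higher. Mrps14, of the small subunit of the mitochondrial ribosome, was at 10.31, 10.36 and 9.82 in Mki67-high pools, against 7.01, 7 and 7 in Mki67-low pools (log2 difference 3.16 ± 0.19, SE; limma adjusted p = 0.0402). Ptp4a3, a phosphatase, was at 10.73, 11.67 and 10.72, against the floor in all 3 Mki67-low pools, at least 16.4-fold higher (limma adjusted p = 0.0404). Rabac1, which binds prenylated Rab proteins, was the only called gene well above the floor in both groups, at 11.36, 11.51 and 11.20, against 9.29, 8.92 and 9.27 in Mki67-low pools (difference 2.19 ± 0.17, SE; limma adjusted p = 0.0408). In CD8 pools these 3 genes were at means of 10.33, 10.31 and 11.54, near the Mki67-high pools.

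The other 4 called genes had levels of 8.74 to 9.87 in the Mki67-high pools and of at most 7.19 in the Mki67-low pools. They were Dus1l, a tRNA dihydrouridine synthase, with a log2 difference of 2.61, and Ppp2r5d, a regulatory subunit of phosphatase PP2A, Cul2, the scaffold of a ubiquitin ligase, and Erp44, a chaperone of the secretory pathway, which were at least 4.53-, 4.03- and 3.70-fold higher. Their adjusted p by limma ran between 0.0402 and 0.0408. Ptp4a3, Ppp2r5d, Cul2 and Erp44 had all 3 Mki67-low pools at the floor, so they entered the test through the Mki67-high pools alone, and their p rest on a group to which the floor leaves no spread. Mrps14 and Dus1l each had 1 Mki67-low pool little above the floor, LSP B at 7.01 and USP Z at 7.19. Their p likewise rest on a group with hardly any measured spread. Of the genes with all 3 Mki67-low pools at the floor, Cul2 alone was at the floor in all CD8 pools. Next after the called genes came Cyb5r3, a reductase, and Dxo, an enzyme of mRNA decapping, with differences of 2.16 and 1.92 and adjusted p of 0.0749 and 0.127 by limma.

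Sfpq, a splicing factor of the paraspeckles, was the 1 gene called lower. It was at 7, 7 and 7.32 in Mki67-high pools and 10.17, 10.69 and 10.55 in Mki67-low pools (log2 difference -3.36 ± 0.20, SE; limma adjusted p = 0.0402). Here the floor leaves the Mki67-high group hardly any spread, so this p is not that of a fully measured difference. A second Sfpq probe set was at the floor in all 3 Mki67-high pools and at 9.66, 10.62 and 9.43 in Mki67-low pools, with an adjusted p of 0.151 by limma, so both showed the same order of groups. Next came Rmnd5a, of a ubiquitin ligase complex, at 9.38, 9.63 and 9.42, against 10.79, 11 and 10.65 in Mki67-low pools. Psmd14, the deubiquitinase of the proteasome lid, was at 7.01, 7 and 7, against 8.94, 9.47 and 10.38. Hoxa7, a homeobox factor, was at 7.64, 7 and 7.10, against 8.81, 9.43 and 9.04. The rest of the 10 lowest p in this direction were of Chchd3, Zfand6, Wsb1 and S100a13, with differences between -1.46 and -0.91, S100a13 taken with the probe set of its lowest p, and of Npm1. Beside Sfpq none of these genes passed the test. The S100a13 probe set that is brightest in the pools also lay below (-0.66), while its further probe sets overlapped between the groups (-0.235 and -0.083).

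Single cells hold Mki67 levels that the grouping did not use. They were sorted from the tip of the SP tail, with 1 array each, and no floor was set. The brighter Mki67 probe set was at 13.13 in cell K and between 6.21 and 8.89 in the other 11 cells. Among the SCE it was at 11.96 in SCE D and between 7.09 and 8.04 in the other 4, although all 5 come from 1 lysate. The other Mki67 probe set had intensities under 128 in all of them, 3.3 in cell K, the lowest of the 12 cells, and 40.9 in SCE D, so both high levels rest on 1 of 2 probe sets.

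Cell K had the highest level of the 12 cells in Lig1 (10.37, next highest 8.51), Ccnd2 (10.89, next 8.49) and Birc5 (10.94, next 7.57), and no other cell reached 9 in these 3 genes. These were 3 of the 13 list genes that lay above in the pools. For comparison, cell K was the highest cell, at 9 or more, in 219 of the 4877 genes (4.49%), and in 11 of the 261 genes that lay above in the pools (4.21%). The Mcm5 probe set that separated the pools was at 3.50 in cell K and at most 7.45 in any single cell, and the other Mcm5 probe set at most 7.87, in cell D. Top2a was highest in cell G, at 11.98, and Ccna2 in cell J, at 11.14, both cells with Mki67 under 9. With 1 such cell no test was made.

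**Figure D5:**
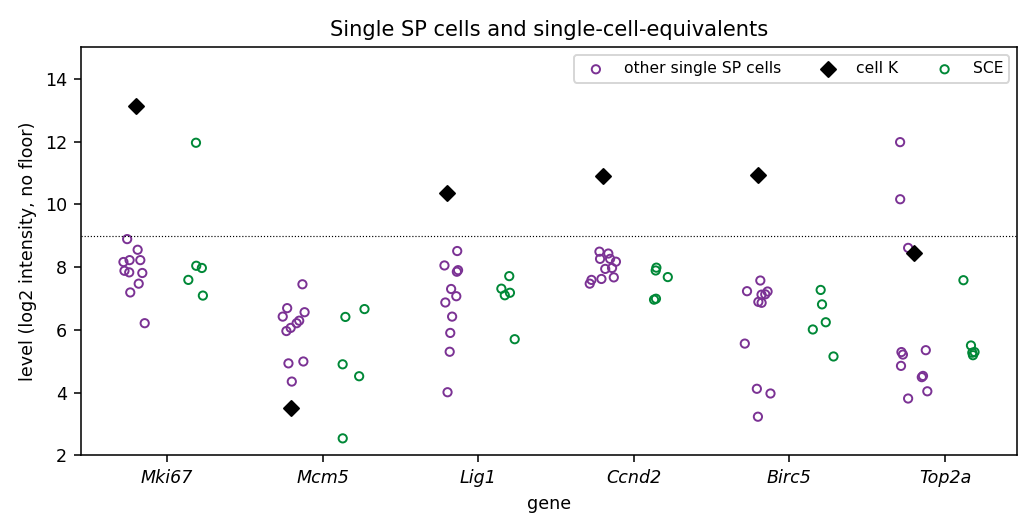
Log2 level (no floor, dotted line at 9) of 6 cell cycle genes in 12 single SP cells (purple, cell K in black) and 5 SCE (green). Each gene is shown with its probe set that is brightest in the SP pools. Cell K stands highest in Mki67, Lig1, Ccnd2 and Birc5 but not in Mcm5 or Top2a, and SCE D alone of the SCE is high in Mki67.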

How the data were processed

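The authors deposited 1 table of signal intensities on a linear scale for 35 Affymetrix MG-U74Av2 arrays. The paper describes log2 RMA levels, but each deposited array is scaled to a trimmed mean near 250, and 9 of the 12 SP arrays hold 24.6% to 32.1% negative values. The other SP arrays, array 2 of LSP B and both of USP Z, hold positive values alone and lie in the Mki67-low group, so the value type is partly tied to the grouping.

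The table lists 12488 probe sets; without its 66 controls, 10833 had 1 gene in the platform annotation. Intensities under 128 were set to 128, logged, and the 2 arrays of a pool averaged. A linear model was fitted to the 6318 probe sets that exceeded this floor on any SP array (limma 3.58.1, R 4.3.3). The fit was tested on simulated data drawn with no floor, so that test does not cover groups held at the floor. Genes of 17 lists were counted with 1 probe set each. The text names the 3 markers, the genes of each list that separated the groups, up to a limit, and 7 common markers. It also names the genes of the 10 lowest p each way. Mcm2, Mcm3, Mcm4, Mcm7, Cdc6, Cdc7, Myc, Cdkn1a, Cdc20, Ect2, Kif20a, Aurka and the granule genes were picked with their values in view. The grouping, the members and the lists were all chosen with earlier results of these data known, and Mcm5 and Lig1 were known to follow Mki67. Alternatives changed the model, floor, filter, scaling or pools. Promoters are from RefSeq (GRCm38.p6). For arrays their number limits the precision.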

Additional observations from a re-analysis of the deposited data

Results flagged for a closer look

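Among the 5 SCE, 1 level stood far from the other 4 in 3 of 14 cell cycle genes compared, by the gap to the nearest value over the whole range (critical value 0.71). Mki67 was at 11.96 in SCE D (0.805 of the range), Rfc2 at 13.25 in SCE E (0.867) and Top2a at 7.58 in SCE C (0.87). Chance marks about 1 in 20 groups. The 3 genes pointed to 3 different SCE of 1 lysate.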

How the results depend on the processing

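The counts of called probe sets depended on nearly every choice. In limma, 9 were higher and 1 lower; with LSP or USP as a covariate, a floor of 8, a mean level of at least 8, quantile normalization or the arrays with negative values alone there were 0 and 0. With no filter there were 0 and 1, with a floor of 6 there were 4 and 0, and with the CD8 samples in the fit 16 and 5. With each array in the fit and the pool as a random block there were 24 and 8, and with the array number as a replicate block added 24 and 4, of which 5 were among the 9 named called genes in either fit. The array number pairs no pools, since it only numbers the arrays of a pool. Leaving out 1 pool gave 0 to 26 higher and 0 to 1 lower. Where the count was 0, 186 to 298 probe sets were higher and 60 to 329 lower at an unadjusted p under 0.05. The DNA replication median of 0.39 was 0.56 with a floor of 6, 0.65 at a mean level of at least 8, 0.18 after quantile normalization, 0.005 with no filter, since genes at the floor on all arrays then count as 0, and 0.23 to 0.52 without 1 pool. The mitosis median of 0.33 was 0.007 with no filter and 0.03 to 0.49 without 1 pool. Of 824 differences of named genes under other settings, 686 kept direction and side of the threshold, 113 lost the call and 22 gained it. All 113 losses were among the 9 named called genes, which kept the call in only 30 comparisons. The 3 that turned were Ccna2 with the covariate (-0.28) and without USP N (-0.44), and Cdkn1c without LSP A (-0.16). Without 1 pool Ccna2 ran between -0.44 and 1.40, and Cdkn1c between -0.16 and 0.47. The cause was not tested. With 3 pools a group and many levels at the floor, small differences were not detectable.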

Other observations

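Ribosomal protein genes were looked at after Rps18 and Rplp0 were seen to lie below. Of 26 tested, 16 lay below in all Mki67-high pools and 0 above, with a median log2 difference of -0.67, and 23 had a lower mean. Rps18 was at 9.96, 10.34 and 10.20 in Mki67-high pools and 11.24, 11.11 and 11.53 in Mki67-low pools, and Rps24 at 10.73, 10.98 and 10.74, against 11.51, 11.83 and 11.67. The 16 genes fell by 0.51 to 1.12 on the log2 scale, and the lowest adjusted p among the 26 was 0.212 by limma, so none was called. All 16 are among the 20 ribosomal genes at a mean level of 10 or more, where 20.7% of all genes lay below. The median was -0.57 after quantile normalization, -0.53 on the arrays with negative values alone and between -0.78 and -0.58 without 1 pool. The set was chosen after values were seen and has no test.

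E2F-type motifs were in the RefSeq windows of 15 of 208 genes with all Mki67-high pools above (7.21%), 12 of 208 with all below (5.77%) and 214 of all 4004 tested genes with a window (5.34%). The CHR motif was in 13.9%, 12.5% and 13.8% of them. These shares are a description.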
